A study of Mus musculus with 26 samples.

Results

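The endothelin system was represented by 5 genes, Edn1, Edn2, Ednra, Ednrb and Ece1, out of 37991 genes in the count table. They were chosen by name, and each symbol belonged to a single Ensembl gene. All 5 had counts in whole retina, and the lowest count in any of the 22 whole-retina libraries was 27, for Edn1.

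Endothelins are short peptides that cells secrete as inactive precursors. Furin-type proteases and then endothelin-converting enzymes, of which Ece1 is the best known, cut the precursors to the active peptide, which binds the G protein-coupled receptors Ednra and Ednrb. Outside the retina Edn1 is made mainly by the lining of blood vessels and narrows them through Ednra on smooth muscle. In the damaged mouse retina Edn2 is known as a signal made by stressed photoreceptors, and Müller glia and astrocytes carry Ednrb.

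All mice carried the rd10 mutation of Pde6b, the rod phosphodiesterase, which kills rods during the first weeks after birth. Mice were injected with an inhibitor of a chromatin enzyme or with vehicle from postnatal day (PN) 9, and tissue was collected at PN24. Whole retinas, labelled B6.CXB1-Pde6brd10/Jrd10, came from 4 experiments, each with its own controls. The study used DZNep and UNC1999 as inhibitors of the histone H3K27 methyltransferase EZH2, and it describes UNC1999 as the more specific. UNC0642 inhibits the H3K9 methyltransferases EHMT1 and EHMT2, and Romidepsin inhibits histone deacetylases. There were 4 control and 2 treated libraries for DZNep, 3 and 3 for UNC1999, 2 and 2 for UNC0642, and 3 and 3 for Romidepsin. In the fifth experiment rods were sorted by fluorescence from rd10 mice bred to carry the transgene line B6.Cg-Tg(Nrl-EGFP)1Asw/J, where the rod-specific Nrl promoter drives EGFP, after vehicle or the LSD1 inhibitor GSK2879552 (here GSK), with 2 libraries each. The control label reads only that no treatment was given, and the study describes saline for the controls in general. For the UNC1999 libraries and all but the first DZNep library the number that ends the genotype label climbs from sample to sample, and treated replicates 2 and 3 of UNC1999 carry treatment labels UNC2000 and UNC2001. The titles, which name 1 treatment throughout, set the groups. Total counts were 13732959 to 36354094 per retina library and 7289460 to 19864491 per sorted-rod library. The replicates are labelled biological, but nothing says how many mice stood behind each library. Levels are given in CPM, counts scaled to a common library size by the trimmed mean of M-values, and only where genes are compared with each other are they divided by exon length. In whole retina, fewer cells of a type and less RNA per cell cannot be told apart.

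The promoters of Edn2 and Ednrb are shown because these genes, the ligand and the receptor, had the largest differences between treated and control libraries below. Each run is the 250 bases before the RefSeq transcript start, 5′ to 3′ on the gene's strand, at chr4:120160956-120161205 (+) and chr14:103843702-103843951 (-) of GRCm38.p6, a later build than the count table's. Capitals mark the single match to any of 6 motifs searched on both strands.
Edn2: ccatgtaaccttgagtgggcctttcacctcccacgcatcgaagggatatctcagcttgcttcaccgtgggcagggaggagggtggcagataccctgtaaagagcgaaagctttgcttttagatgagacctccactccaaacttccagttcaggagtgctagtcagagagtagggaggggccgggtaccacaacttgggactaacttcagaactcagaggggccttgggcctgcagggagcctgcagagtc
Ednrb: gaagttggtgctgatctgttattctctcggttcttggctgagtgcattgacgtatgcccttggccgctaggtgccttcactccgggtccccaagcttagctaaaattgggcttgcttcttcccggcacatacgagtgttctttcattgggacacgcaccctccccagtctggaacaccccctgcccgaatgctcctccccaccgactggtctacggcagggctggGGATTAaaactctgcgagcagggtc
The motifs were AP-1 (TGANTCA), STAT (TTCNNNGAA), the cAMP response element (TGACGTCA), the hypoxia response core (ACGTG), the site of the photoreceptor factor CRX (TAATCC) and the TATA box (TATAAA). The Ednrb window held TAATCC on the reverse strand, 25 bases before the start, as did 6.25% of 32851 mouse promoters on either strand. The Edn2 window held none of the 6, and in all promoters their shares ran from 1.55% for the cAMP response element to 16.6% for the hypoxia core. These are matches of letters and not sites of binding.

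In the 12 control retinas Edn2 and Edn1 lay far apart. Per kilobase of exon, Edn2 averaged 33.8 ± 13.3 CPM (SD, n = 12), Ece1 20.6 ± 2.15, Ednrb 3.66 ± 1.53, Edn1 1.31 ± 0.283 and Ednra 0.637 ± 0.156. Edn2 was the leading endothelin transcript on this length-adjusted scale and Ednrb the leading receptor. From the lowest to the highest control retina the CPM of Edn2 spanned 3.59-fold, of Ednrb 2.97-fold and of Ece1 1.37-fold. Edn3, the remaining ligand, which is not among the 5 genes, had 1 to 82 counts in these libraries.

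**Figure D1:**
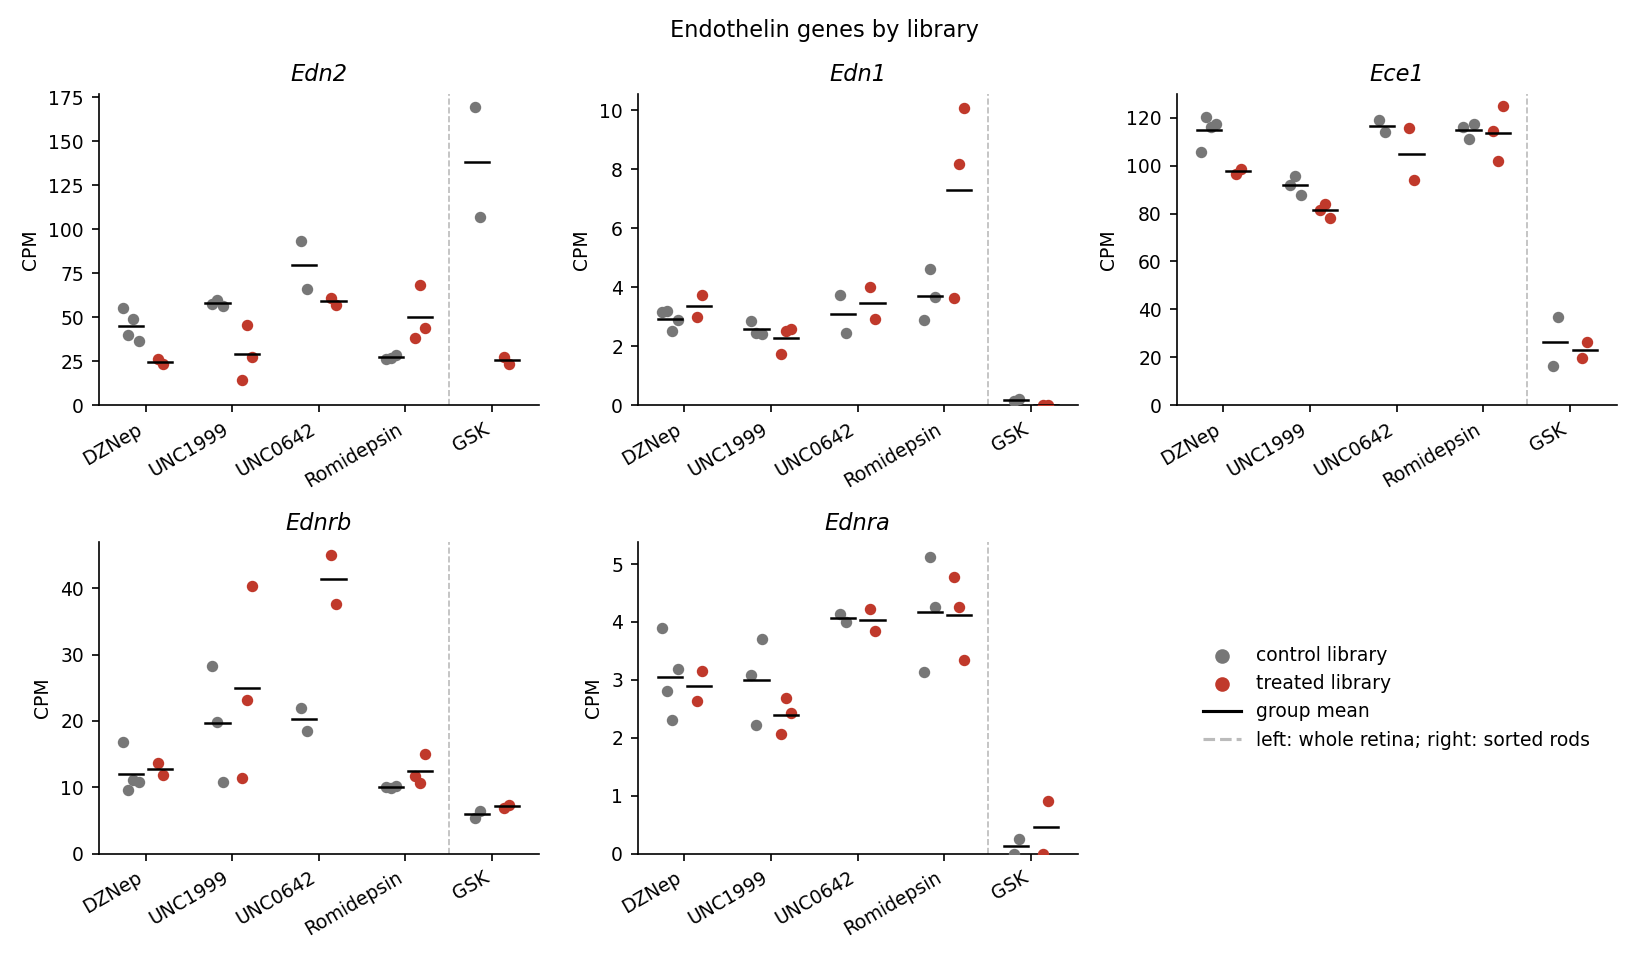
Level of each endothelin gene (CPM, linear axis from 0) in every library, grey for control and red for treated, with a bar at each group mean; sorted rods stand to the right of the dashed line. Edn2 treated libraries lie below their controls for DZNep, UNC1999, UNC0642 and GSK and above them for Romidepsin, and Ednrb is highest after UNC0642.

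Edn2 fell with the EZH2 inhibitor DZNep. The controls read 55.0, 39.6, 48.6 and 36.4 CPM and the treated retinas 26.1 and 23.2 CPM. Both treated retinas lay below every control. The log2 fold change was -0.85 ± 0.159 (SE), a 1.81-fold lower level, with an adjusted p of 0.00671 by edgeR's quasi-likelihood test over 16477 genes. Ece1, the converting enzyme, also fell, from 115 ± 6.43 CPM (SD, n = 4) to 97.7 ± 1.54 (n = 2), a log2 fold change of -0.24 ± 0.0588 with an adjusted p of 0.0212 in the same edgeR fit. Its control libraries held 105.6, 120, 116 and 117 CPM and the treated 96.6 and 98.8, again without overlap. So 2 of the 5 genes fell and none rose, where 9.72% of all genes tested fell and 12.9% rose with DZNep. Groups without overlap were common in this experiment, at 46% of all genes. Edn2 lost its call without treated replicate 1, with a log2 fold change of -0.95 and an adjusted p of 0.0552, and kept it without any other library, at adjusted p values up to 0.0475. Ece1 lost its call without control replicate 2 (0.0598), control replicate 3 (0.0582), treated replicate 1 (0.153) or treated replicate 2 (0.0795).

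The other EZH2 inhibitor, UNC1999, gave an Edn2 difference of like size with more scatter. Controls held 57.4, 59.5 and 56.4 CPM, close to each other, and treated retinas 14.0, 45.3 and 27.2 CPM. The treated libraries scattered widely, and all lay below the controls. This gave a log2 fold change of -0.99 ± 0.333, with a 95% interval of -1.76 to -0.22 and an adjusted p of 0.128, so Edn2 did not pass the quasi-likelihood test. edgeR's likelihood ratio test gave an adjusted p of 0.0421 and DESeq2 0.166. Ece1 did not overlap either, at 91.8 ± 3.85 CPM in controls and 81.3 ± 2.93 in treated retinas (SD, n = 3 each), with a log2 fold change of -0.18 ± 0.0589 and an adjusted p of 0.127. None of the 5 genes was called, where 0.602% of 15775 genes were, and 2 of the 5 did not overlap, where 27.5% of all genes did not.

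With Romidepsin the Edn2 difference had the opposite sign. Control retinas held 25.9, 26.9 and 28.3 CPM, and treated retinas 38.3, 68.4 and 43.6 CPM. Every treated library lay above every control, where 26% of all genes did not overlap between the groups. Edn2 differed by 0.89 ± 0.206 on the log2 scale, a 1.85-fold difference, with an interval of 0.42 to 1.36 and an adjusted p of 0.0743. It did not pass the quasi-likelihood test, in which 0.748% of 16049 genes did, and it passed with the likelihood ratio test (0.00364) and with DESeq2 (0.00362). Without treated replicate 1 the log2 fold change was 1.05 with a quasi-likelihood adjusted p of 0.0400. Without treated replicate 2, the highest library, it was 0.61 with 0.0458. Without any one of the other 4 libraries Edn2 still did not pass, at quasi-likelihood adjusted p values up to 0.210.

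With the H3K9 methyltransferase inhibitor UNC0642, Edn2 stood at 93.1 and 65.7 CPM in controls, above every other control retina, and at 60.9 and 56.8 CPM in treated retinas. The groups did not overlap, where 52% of all genes did not, and the 2 controls differed from each other by more than the lower control did from the treated retinas. On the log2 scale the difference was -0.42 ± 0.156, with an interval of -0.79 to -0.04 and an adjusted p of 0.329. The quasi-likelihood test called 0 of 16321 genes here, a background of 0%, with 2407 genes at an unadjusted p below 0.05. The likelihood ratio test called 145 genes and DESeq2 172, and Edn2 was among neither.

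In sorted rods Edn2 showed its largest difference. The vehicle rods held 169 and 107 CPM (1235 and 1691 counts) and the GSK rods 27.5 and 23.2 CPM (480 and 206 counts). The treated libraries lay far below both controls, where 33.8% of all genes did not overlap between the groups. The log2 fold change was -2.52 ± 0.294, a 5.75-fold lower level with an interval of -3.19 to -1.85 on the log2 scale. Edn2 ranked 1 by p of 14478 genes tested (unadjusted quasi-likelihood p of 1.61e-05 in edgeR), yet its adjusted p was 0.233, and no gene was called, a background of 0%, with 711 genes at an unadjusted p below 0.05. The likelihood ratio test called 71 genes and gave Edn2 an adjusted p of 7.05e-10, and DESeq2 called 48 and gave 2.62e-11. Leaving out 1 library at a time kept the log2 fold change between -2.85 and -2.11. Each such fit has 1 library in a group, whose spread is unknown, so only the size is given. In the sorted-rod libraries the summed level of 15 rod markers was 68878 to 105178 CPM in controls and 89456 to 100968 in treated rods. That of 8 cone markers was 3129 to 4929 against 1873 to 2452. All 8 cone markers had log2 fold changes below 0, from -1.47 to -0.42, while rod markers ran from -0.57 to 0.36. None of either list was called, but this test called no gene at all. The part of these differences in the Edn2 result was not tested.

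**Figure D2:**
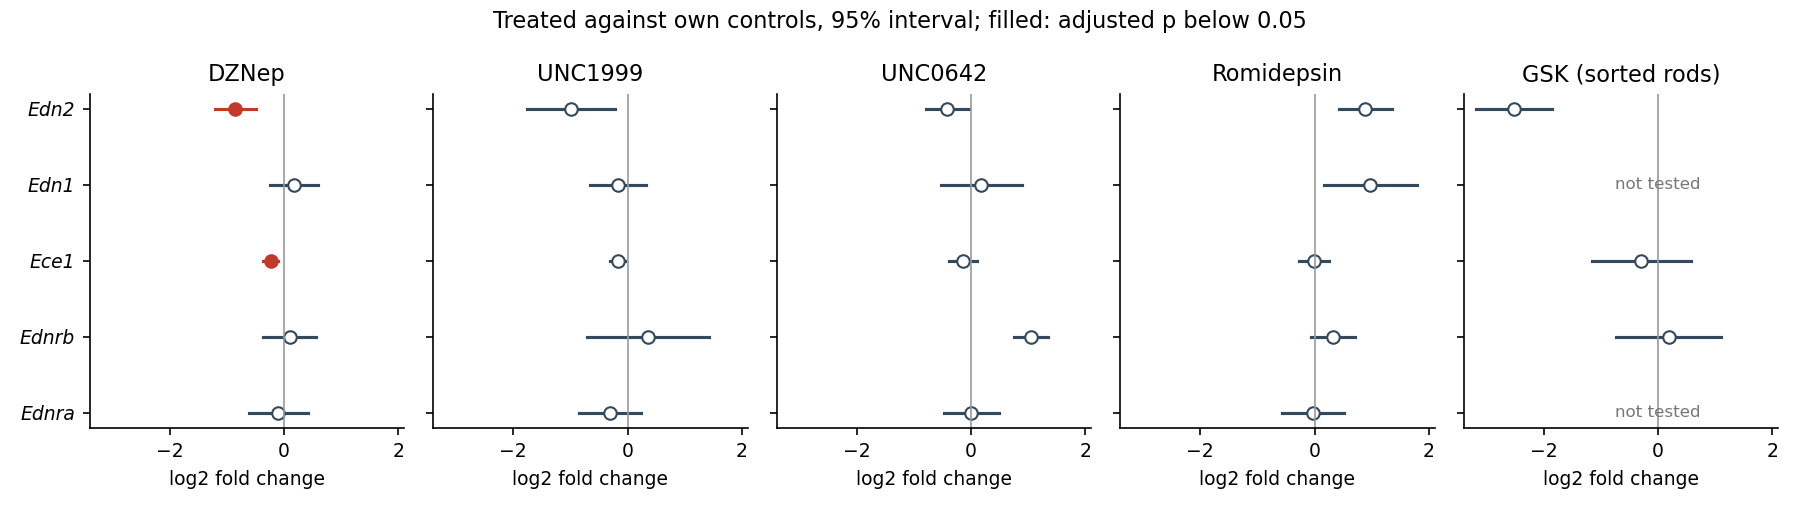
Log2 fold change of each gene against its own controls in the 5 experiments (points) with 95% intervals (lines) from edgeR; filled red points passed an adjusted p of 0.05. Only Edn2 and Ece1 under DZNep are filled, and the Edn2 point lies farthest from 0 in sorted rods, at -2.52.

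Whether inhibitors differed in their effect on Edn2 was tested directly in 1 fit of the 22 retinas, over 6 pairs of inhibitors and 17274 genes together. The UNC1999 effect was lower than the Romidepsin effect by a log2 difference of -1.89 ± 0.399, with an interval of -2.73 to -1.05 and an adjusted p of 0.0429. This was the one call among the 5 genes and 6 pairs, where 0.897% of genes were lower for this pair. It lay at the edge of the threshold: leaving out 1 library at a time kept the difference between -2.38 and -1.57 but ended the call for 17 of 22 libraries, at adjusted p values up to 0.103. The call stood only without Romidepsin treated replicate 1, DZNep control replicate 1, UNC1999 control replicate 3 or UNC1999 treated replicate 1 or 2. The DZNep effect less the Romidepsin effect was -1.75 ± 0.421, with an adjusted p of 0.0710, and the UNC0642 effect less the Romidepsin effect was -1.31 ± 0.440, with an adjusted p of 0.186. The 2 EZH2 inhibitors differed by 0.14, with an interval of -0.72 to 1.00 that holds differences of either sign. Doses and vehicles differed between inhibitors, and each comparison carries its own experiment, which cannot be told apart from the compound.

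**Figure D3:**
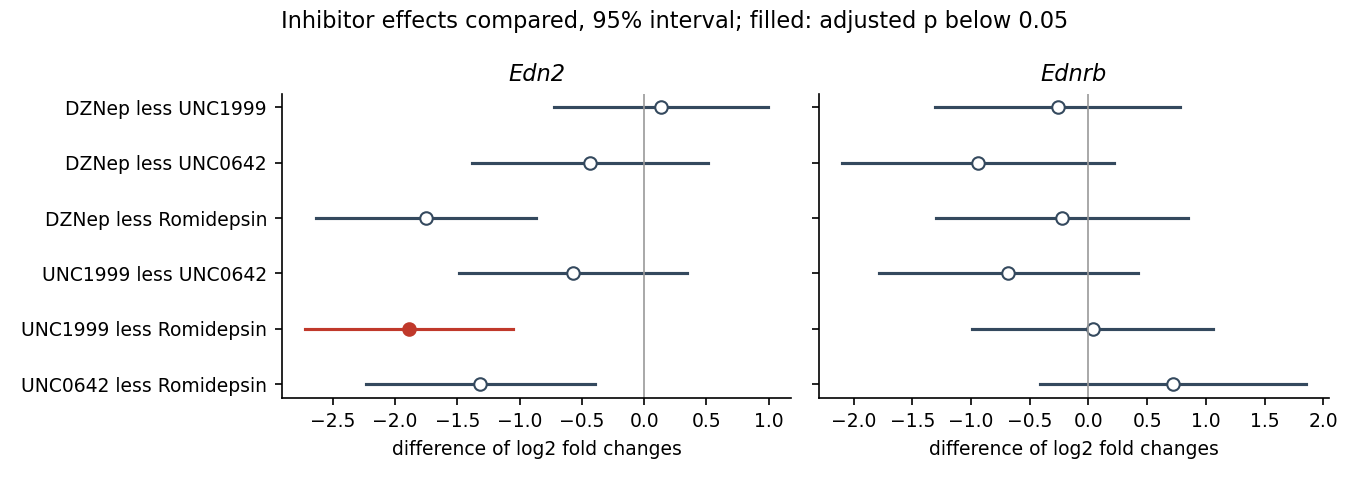
Difference between the log2 fold changes of 2 inhibitors (first less second) for Edn2 and Ednrb with 95% intervals, from 1 fit of 22 retinas. For Edn2 the 3 differences from Romidepsin all lie below 0, from -1.89 to -1.31, and only that of UNC1999, filled red, passed; for Ednrb all 6 intervals cross 0.

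Rod transcripts, which mark the cells named as the source of Edn2, did not follow Edn2 in a fixed way. All 15 rod markers rose with DZNep, with a median log2 fold change of 1.17, while Edn2 fell. With UNC1999 the median was 0.99 with 1 marker called, where 0.602% of all genes were called. With Romidepsin it was 0.53 and with UNC0642 0.21 with none called, where 0.748% and 0% of all genes were. Counted against rod transcripts, Edn2 gave 1.48 to 1.70 counts per 1000 rod-marker counts in DZNep controls and 0.357 to 0.390 in treated retinas. For UNC1999 the ratio was 1.28 to 2.52 in controls and 0.173 to 0.758 in treated retinas. These ranges do not overlap, and neither do those of sorted rods, at 1.02 to 2.46 in controls and 0.260 to 0.273 with GSK. With Romidepsin the ratio was 1.02 to 1.51 in controls and 1.04 to 2.48 in treated retinas, which overlap. The UNC0642 experiment stood apart, with 6.42 to 9.24 in controls and 3.79 to 5.85 in treated retinas, and with the lowest rod-marker sums, 10071 to 14981 CPM. The part of rod-marker content in the Edn2 differences was not tested.

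**Figure D4:**
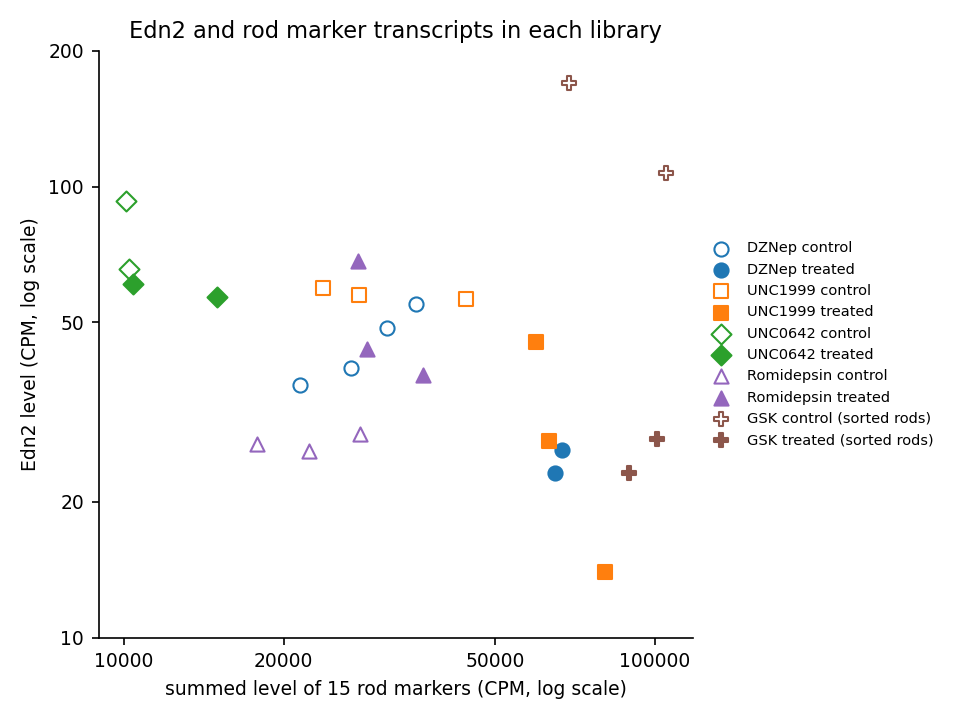
Edn2 level against the summed level of 15 rod markers (both CPM, log axes) in each of the 26 libraries, open for control and filled for treated, 1 symbol per experiment. Treated DZNep and UNC1999 retinas sit at 59687 to 80564 CPM of rod markers and at 14.0 to 45.3 CPM of Edn2, and the treated sorted rods lie far below their controls at a like rod-marker sum.

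Edn1, the vascular endothelin, was scarce in retina, at 1.74 to 4.02 CPM in all libraries outside the Romidepsin experiment. There, controls held 2.88, 4.61 and 3.66 CPM and treated retinas 3.64, 8.19 and 10.1 CPM. The first treated retina lay among the controls and the other 2 were above them. The log2 fold change was 0.98 ± 0.359, with an interval of 0.16 to 1.80 and a quasi-likelihood adjusted p of 0.185. Without treated replicate 1 it was 1.30 with an adjusted p of 0.0403 by the same test. Without any one of the other 5 libraries Edn1 did not pass, at adjusted p values up to 0.421 and log2 fold changes down to 0.67. In the other 3 retina experiments the log2 fold changes ran from -0.16 to 0.18 and no group stood clear. The summed level of 10 endothelial markers, 623 to 644 CPM in treated Romidepsin retinas and 747 to 945 in controls, did not overlap between the groups.

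Ednrb, the receptor of Müller glia, showed its largest difference with UNC0642. Controls held 21.996 and 18.5 CPM and treated retinas 45.0 and 37.7 CPM. The treated retinas lay above both controls, where 52% of all genes did not overlap between the groups. One treated retina was the highest of all 22 retinas. This was a log2 fold change of 1.04 ± 0.123, a 2.06-fold difference with an interval of 0.75 to 1.34. Ednrb ranked 6 by p among all genes (unadjusted p of 0.000103 in edgeR's quasi-likelihood test) and had an adjusted p of 0.224, above the threshold like every other gene in that experiment. The likelihood ratio test gave an adjusted p of 5.65e-08, and DESeq2 gave none. Leaving out 1 library at a time, which leaves 1 library in a group, kept the log2 fold change between 0.92 and 1.17. Of 12 Müller markers none was called in this experiment. A log2 fold change below 0 was seen in 9 of 12, with a median of -0.22 over all 12. Their sum was 6181 to 6619 CPM in treated retinas and 7699 to 8246 in controls. Among markers of the retinal pigment epithelium, also uncalled, log2 fold changes were 1.43 for Rgr, 1.08 for Rdh5 and 1.05 for Lrat. Rrh (-0.45) and Best1 (-0.51) went the other way, and the rest ran from 0.07 to 0.63. The part of either list in the Ednrb difference was not tested.

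UNC1999 shows how far Ednrb varied within a group. Controls held 28.3, 19.9 and 10.7 CPM and treated retinas 11.3, 23.2 and 40.3 CPM, which overlap across nearly the whole range. The log2 fold change was 0.36, with an interval of -0.70 to 1.43. With Romidepsin, controls held 10.0, 9.94 and 10.1 CPM and treated retinas 11.7, 10.7 and 15.0 CPM, which do not overlap, where 26% of all genes did not, and the log2 fold change of 0.32 ± 0.172 had an adjusted p of 0.345. With DZNep, controls of 16.8, 9.52, 11.02 and 10.7 CPM and treated retinas of 13.7 and 11.9 CPM gave 0.10 with an interval of -0.37 to 0.56. In that experiment 10 of 12 Müller markers fell and 1 rose, where 9.72% of all genes fell and 12.9% rose. No difference between inhibitors in the Ednrb effect passed: UNC0642 less Romidepsin was 0.72 with an interval of -0.41 to 1.85, and DZNep less UNC0642 was -0.94 with an interval of -2.10 to 0.21.

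Ednra, the receptor of vascular smooth muscle, lay between 2.06 and 5.13 CPM in every retina, on 32 to 108 counts. Its log2 fold changes ran from -0.31 to 0.01 over the 4 retina experiments, with overlapping groups in each, and at these counts a change of the size seen for Ece1 under DZNep lay inside each interval. A lincRNA on the opposite strand, 4933431K23Rik, shares 91 exon bases with it and had 13 counts in all libraries together. Ece1 outside DZNep and UNC1999 stayed at 94.1 to 125 CPM in retina, with log2 fold changes of -0.14 for UNC0642 and -0.01 for Romidepsin and overlapping groups.

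Ordered by group mean in retina, Edn2 ran from 24.7 CPM in DZNep-treated retinas through 27.1 in Romidepsin controls and 28.8 in UNC1999-treated retinas to 44.9, 50.1, 57.8, 58.9 and 79.4 CPM in DZNep controls, Romidepsin-treated retinas, UNC1999 controls, UNC0642-treated retinas and UNC0642 controls. In 6 of the 7 neighbouring pairs the libraries overlap, and only the top pair does not. The means of the 4 control groups alone spanned 27.1 to 79.4 CPM. For Ednrb, Edn1 and Ednra all 7 neighbouring pairs overlap.

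The control sorted rods were set against the 12 control retinas to compare each level in rods and in whole tissue. Of 15 rod markers 13 were higher and none lower in the sorted rods, and all 12 Müller markers were lower. Among cone markers Opn1sw, Gnat2 and Gnb3 were also higher, by log2 differences of 1.85, 0.87 and 0.57. Cnga3 was lower, by -0.78, and Opn1mw, Pde6h, Pde6c and Arr3 were not called. Edn2, at 169 and 107 CPM against 25.9 to 93.1 CPM, was 2.79-fold higher in sorted rods, a log2 difference of 1.48 ± 0.340 with an adjusted p of 0.000786. Ece1 was lower, at 16.2 and 36.7 CPM against 87.9 to 120 CPM, a log2 difference of -2.02 ± 0.224. Ednrb was 5.35 and 6.45 CPM on 39 and 102 counts, against 9.52 to 28.3 CPM, a log2 difference of -1.31 ± 0.438 with an adjusted p of 0.0114. Without control rod replicate 1 the adjusted p was 0.0509 for Edn2 and 0.0784 for Ednrb, and without replicate 2 it was 0.0533 for Ednrb. Edn1 and Ednra came to 4 counts each over the 2 rod libraries, which is 5.15% of the retina level for Edn1 (exact 95% interval 1.40% to 13.2%, counting error only) and 4.55% for Ednra (1.24% to 11.7%). All 5 genes were called, 1 higher and 4 lower, but 38.3% of all genes were higher and 45.2% lower, and the count of endothelin genes is read against those shares. Genotype, dissociation, sorting and perhaps the library kit differ with the cells and cannot be told apart. The 12 control retinas, from 4 experiments, were fitted as 1 group, so these SEs and p-values do not account for the spread between experiments.

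Ednrb differed less from retina than most glial markers did. The log2 difference of 12 Müller markers had a median of -3.99, from -7.17 to -1.29, and 11 of the 12 were lower by more than Ednrb was. All 12 microglia markers were also lower by more. Per kilobase, in the 2 control rod libraries, Edn2 stood at 94.5 ± 30.1 CPM (SD), Ece1 at 4.99 ± 2.74 and Ednrb at 1.46 ± 0.194, so Edn2 led here as in control retina. Edn1, at 0.0697, and Ednra, at 0.0231, rested on 4 counts each and cannot be ordered. Between GSK and control rods, Ednrb differed by 0.19 with an interval of -0.73 to 1.10 and Ece1 by -0.29 with an interval of -1.16 to 0.58, and 3 of the 5 genes were tested. Ednrb did not overlap, at 6.88 and 7.33 CPM in GSK rods, where 33.8% of all genes did not overlap. Edn1, with 0 counts in both GSK libraries, and Ednra, with 0 and 8, were below the filter.

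Few other genes of the pathway passed the test. Ece2, a second converting enzyme, fell with DZNep from 57.8 to 39.6 CPM, a log2 fold change of -0.55 ± 0.0800 with an adjusted p of 0.00227 in edgeR. None of the other 8 genes of ligand, processing and clearance was called in any of the 5 experiments, and the proteases Kel, Cma1 and Mcpt4 were at 4 counts or fewer per library. A list of 17 genes of receptor signalling held mostly the Gq route, which endothelin receptors use inside the cell. It also held Gna12 and Gna13 of another G protein family and the arrestins Arrb1 and Arrb2. Of the 17, 4 fell with DZNep (Prkce, Prkca, Plcb4 and Rgs4) where 9.72% of all genes fell. None was called in the other experiments, where 0% to 0.748% of all genes were. The median log2 fold change of the 17 was -0.15 with DZNep, -0.11 with UNC1999, -0.14 with UNC0642 and -0.08 with Romidepsin, and that of the 16 tested in sorted rods was 0.10.

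Genes of the glial response to injury, in which Edn2 takes part, were described beside it. Of 13 such genes, 3 fell with DZNep, namely the cytokine receptor gene Osmr, the protease inhibitor gene Timp1 and the reactive-glia gene Serpina3n, and none rose, where 9.72% of all genes fell and 12.9% rose. With Romidepsin 3 rose and none fell, where 0.748% of all genes were called in either direction. Lif, the cytokine that photoreceptor damage induces in Müller glia, rose from 3.66 to 45.7 CPM with a log2 fold change of 3.64 ± 0.469 and an adjusted p of 0.0277 in edgeR. Cebpd and Socs3, both induced by that cytokine family, rose by 1.78 and 2.79 on the log2 scale. The median of the 13 was 0.84 with Romidepsin, -0.22 with DZNep, -0.56 with UNC1999, -0.03 with UNC0642 and, for 11 of them, -0.67 with GSK, against medians over all genes of -0.01 with Romidepsin and GSK and nearer 0 elsewhere. None was called with UNC1999, UNC0642 or GSK.

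Markers of other cells are given here beside the shares of all genes called. With DZNep 12.9% of all genes rose and 9.72% fell, and with UNC1999 0.602% were called in either direction. Microglia markers had medians of -0.80 with DZNep, -1.23 with UNC1999, -0.60 with UNC0642, -0.72 with Romidepsin and -0.51 in sorted rods, with 2 of 12 called lower for each EZH2 inhibitor. Of 10 markers of the retinal pigment epithelium, 6 rose with DZNep and 7 with UNC1999, and 1 fell with DZNep. None was called with UNC0642, where no gene was, or with Romidepsin, where 0.748% of all genes were. With Romidepsin their log2 fold changes ran from -1.39 for Rpe65 to 0.37 for Best1, the only one above 0. Melanocyte markers rose in 2 of 7 with DZNep and 3 of 6 tested with UNC1999. With Romidepsin none of them was called, at log2 fold changes from -1.63 for Pmel to -0.02 for Oca2. Endothelial markers fell in 2 of 10 with DZNep, and of 9 mural and 5 astrocyte markers 1 rose and 1 fell each with DZNep. On so few markers these DZNep counts cannot be set apart from the all-gene shares. The summed lens markers were 2.66 and 84.9 CPM in the 2 DZNep-treated retinas, and Edn2 in the same retinas was 26.1 and 23.2 CPM. Without the second of them the Edn2 log2 fold change was -0.78 with an adjusted p of 0.0475. The part of these markers in the endothelin results was not tested.

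The genes whose level followed Edn2 most closely were found over the 22 retinas, each library centred on the mean of its own experiment. They were D8Ertd82e with a Pearson r of 0.933, Kcng4 with 0.921, E2f6 with 0.897, Gm12802 with 0.890 and Antxr2 with 0.888. Edn1 had an r with Edn2 of 0.458, Ece1 of 0.412, Ednra of 0.346 and Ednrb of 0.107. For Ednrb the leading genes were G3bp1 with 0.844, Eif3j with 0.830, Rras2 with 0.817, Gtpbp4 with 0.809 and Rnd3 with 0.802. These values describe libraries that share treatments and scaling.

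The genes lie, on NCBIM37, at chr13:42396639-42403358 (+) for Edn1, chr4:119833811-119839965 (+) for Edn2, chr8:80186930-80248363 (-) for Ednra, chr14:104213842-104243390 (-) for Ednrb and chr4:137418152-137521144 (+) for Ece1. All 5 are protein-coding, and counts were summed over their exons.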

How the data were processed

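The authors trimmed reads with BBDuk, aligned them with HISAT2 2.2.1 to NCBIM37 (Ensembl annotation) and counted reads per gene with HTSeq 0.11.2; the deposited table holds these raw counts for 37991 genes in 26 libraries. The strand setting of counting was not given in the sources used here, and for sorted rods the labels and the methods name different library kits. Symbols came from the GENCODE annotation of the same build, which matched 37205 gene IDs. Counts were tested with edgeR 4.0.16 (quasi-likelihood F test, TMM scaling, filterByExpr, in R 4.3.3) within each experiment, with Benjamini-Hochberg adjustment over all genes tested and a threshold of 0.05; ± after a fold change is its SE. DESeq2 1.42.0, the likelihood ratio test and other filters were alternatives. The procedure was tested on simulated counts. Replicates differed by more than sampling noise in all 23 pairs. A floor of 3 counts was 0.0825 to 0.218 CPM in retina and 0.151 to 0.412 CPM in sorted rods. The 5 genes, the gene lists and the motifs were chosen with earlier results of these data known. The genes most like Edn2 and Ednrb are the 5 with the highest Pearson r of log2 CPM (prior count 2) among 17274 genes. Promoters came from RefSeq.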

Additional observations from a re-analysis of the deposited data

Results flagged for a closer look

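The effects of 2 inhibitors on Edn2 differed by the direct test: UNC1999 less Romidepsin gave a log2 difference of -1.89 ± 0.399 (SE; adjusted p of 0.0429 in edgeR's quasi-likelihood test). The UNC1999 effect in that fit was -0.99 and the Romidepsin effect 0.90. All 3 UNC1999-treated retinas lay below their controls and all 3 Romidepsin-treated retinas above theirs. The groups did not overlap for 27.5% of all genes with UNC1999 and 26% with Romidepsin. No library of the DZNep controls, the only group of 4, stood out from the others of its group for any of the 5 genes.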

How the results depend on the processing

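The call counts for the 5 genes moved with the choice of test. For DZNep, 2 became 0 with a fold threshold of 1 on the log2 scale, 0 with all 22 retinas in 1 fit, 1 with the replicate block, and 0 to 2 with 1 replicate left out. The count of 0 became 1 for UNC1999 with the likelihood ratio test or all 22 retinas; for UNC0642, 1 with the likelihood ratio test, 1 with the block, 2 with no low-count filter and 0 to 1 with a replicate left out; for Romidepsin, 1 with the likelihood ratio test, DESeq2 or no filter, 2 with all 22 retinas and 0 to 2 with a replicate left out; for GSK, 1 with the likelihood ratio test, DESeq2, no filter or the block and 0 to 1 with a replicate left out. The count of 1 for differences between inhibitors became 2 with the likelihood ratio test, DESeq2 or no filter, 0 with the block, and 0 to 3 with a library left out. The 5 calls in rods against retina became 3 when 10 counts were required in every library and 3 to 5 with a library left out. The cause was not tested. With Spearman's rho, 2 of the 5 genes most like Edn2 and 2 of those most like Ednrb stayed in the top 5.

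Small fold changes turned sign: Ednrb under DZNep was -0.013 with the block, Ednra under UNC0642 -0.0014 with no filter and Ece1 under Romidepsin 0.0050 with the stricter filter. With a replicate left out, ranges crossed 0 for the Edn2 difference of DZNep less UNC1999 (-0.20 to 0.61), Ece1 under GSK (-0.73 to 0.38), Ece1 under Romidepsin (-0.079 to 0.066), Edn1 under UNC0642 (-0.083 to 0.52), Ednra under DZNep (-0.21 to 0.040), Ednra under Romidepsin (-0.18 to 0.15), Ednra under UNC0642 (-0.057 to 0.061), Ednrb under DZNep (-0.017 to 0.30) and Ednrb under UNC1999 (-0.17 to 0.71). Edn2 kept its direction in every alternative within each experiment.

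The main fits did not pair samples by replicate number. Deviations of same-numbered samples correlated between -0.279 and 0.230. With 2 libraries in each group, both replicate numbers give the same value by construction (0.213 for UNC0642 and -0.0788 for GSK). This check therefore cannot settle whether the samples were paired. With the block, Ednrb under UNC0642 (adjusted p of 4.83e-05) and Edn2 under GSK (0.00109) passed and Ece1 under DZNep (0.115) did not. Where leaving out a replicate left 1 library in a group, that library was assumed to vary like the rest. Groups of 2 and the low counts of Edn1 and Ednra, 27 to 226 and 32 to 108 per retina, limit what could be detected.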
